A study of Mus musculus with 11 samples.

Results

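The genes described here are 10 markers of fibroblast and stellate cell identity, Pdgfra, Pdgfrb, Fap, Pdpn, Thy1, Dpt, Pi16, Lrrc15, Islr and S100a4. They were taken as a list of lineage genes that lie outside the collagen matrix and contractile gene sets, matched by symbol, and make up 10 of the 54232 genes in the count table. RNA sequencing was performed on 11 orthotopic pancreatic tumors from female C57BL/6 mice, 6 grown in PKN2 KO hosts, replicates A to F, and 5 in PKN2 WT hosts, replicates A to E. Each tumor came from a different animal and contributed a single piece. All hosts were adult, carried one RosaCreERT2 allele, which places a tamoxifen-inducible Cre recombinase under the ubiquitous Rosa26 promoter, and received tamoxifen. KO hosts carried floxed alleles of Pkn2, which encodes the serine/threonine kinase PKN2, and WT hosts carried wild-type alleles. The deletion was therefore induced in the whole host and not in fibroblasts alone. Tumors grew from 1000 TB32048 cells, a pancreatic carcinoma line derived from a mouse of the KPC model and implanted with Pkn2 intact, so that each tumor piece mixed carcinoma cells with host stroma.

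Pancreatic stellate cells are resident mesenchymal cells that store vitamin A in the healthy gland and become matrix-producing, contractile cells on activation. Together with other resident fibroblasts they give rise to cancer-associated fibroblasts, which differ in state: some are myofibroblastic, some inflammatory, and some keep features of the fibroblasts that surround vessels and line organs. No single gene marks them all, so that fibroblasts are recognized by sets of receptors, surface proteins and secreted proteins, several of which are shared with pericytes, lymphatic vessels, T cells or mesothelium.

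None of the 10 genes was called different between KO and WT tumors. Pdgfra, Islr, Dpt and Lrrc15 had higher means in KO tumors and S100a4 a lower one, while Fap and Thy1 had almost equal means, and the ranges of the groups overlapped for every one of the 10. Between the lowest and the highest tumor, values differed from 2.06-fold for Thy1 to 26.7-fold for Dpt and 99.2-fold for Lrrc15. With edgeR's quasi-likelihood test and Benjamini-Hochberg adjustment over 16536 genes, 0 of the 10 passed an adjusted p of 0.05, against 0.0181% of all genes tested. At an unadjusted p under 0.05, 1 of the 10 (S100a4, lower in KO) passed, against 24% of all genes in either direction and 15.5% lower in KO. DESeq2 called 0 of the 10 at an adjusted p of 0.05, against 8.06% of the genes it adjusted, and 1 of the 10 at an unadjusted p under 0.05, against 16.5%. The fitted difference was above 0 for 7 of the 10 genes, against 48% of all genes, and the median log2 fold change of the 10 was 0.32, against -0.03 over all genes. The CPM values of the groups were free of overlap for 3.6% of all genes and for 0 of these 10.

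Total counts ranged from 16294128 to 31121422 per tumor. Expression is given in CPM, counts divided by TMM-scaled (trimmed mean of M values) library size and set to a common total, and 3 counts corresponded to 0.0964 to 0.184 CPM by library total. Pkn2 itself was at 96.6 ± 9.34 CPM in KO (SD, n = 6) against 96.7 ± 34.6 CPM in WT tumors (SD, n = 5), with a range of 80.1 to 108 in KO and 62.9 to 138 in WT. This value comes from a gene-level count in pieces that hold implanted cells with an intact gene, and it does not check the host deletion. Libraries of WT replicates A, B and C stood apart from the rest: their genes' deviations from the mean over tumors were negatively related to transcript length (Spearman correlation across genes -0.50, -0.45 and -0.17, against 0.10 to 0.37 in the other 8), and ribosomal RNA took 1.31%, 6.39% and 1.40% of their counts, against 0.241% to 0.765%. The carcinoma epithelium genes summed to 2657 to 5442 CPM in KO and 3086 to 9254 CPM in WT tumors, and the acinar genes to 6.21 to 273 and 12.3 to 975 CPM, with WT replicate E at the top of the acinar range. In bulk tissue, fewer fibroblasts and less RNA per fibroblast cannot be told apart, and the part that these library differences play in the results below was not tested.

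**Figure D1:**
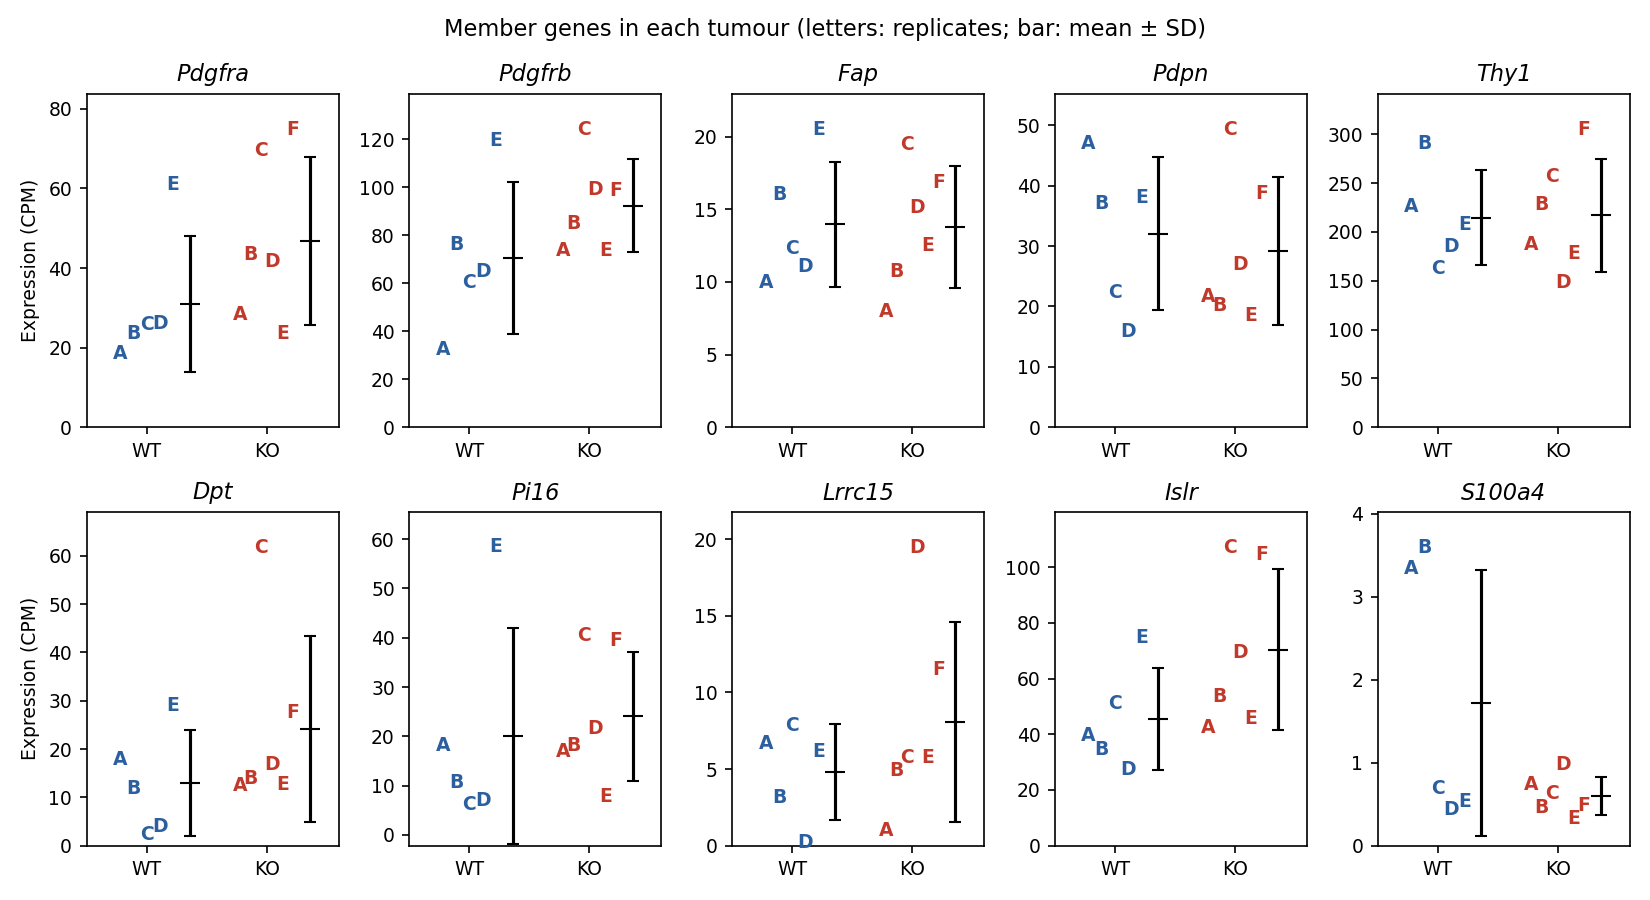
Expression of the 10 genes (CPM, linear axis, separate scale for each gene) in every tumor, with WT in blue and KO in red. Letters are replicates, and the bars show the mean and SD of 5 WT or 6 KO tumors. WT replicate E lies among the KO tumors with the highest values for Pdgfra, Pdgfrb, Fap, Dpt and Pi16, and WT replicates A and B stand alone at the top for S100a4.

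Levels per length of transcript were compared in TPM, counts per base of annotated exon rescaled to a common total in each tumor. TPM and CPM did not set the genotypes apart alike, so that TPM serves here to rank genes and not to compare KO with WT. By CPM, mean Thy1 was 217 in KO and 214 in WT tumors, and mean Pdpn was 29.2 in KO and 32.1 in WT tumors. Thy1, which encodes a small membrane-anchored surface glycoprotein, was the most abundant of the 10, with a mean level of 222 TPM in KO and 170 TPM in WT tumors. Islr, which encodes a leucine-rich repeat protein also known as meflin, followed with a mean level of 80.3 TPM in KO and 44.0 TPM in WT tumors. Below these came Pdgfrb, Pdpn and Dpt, with mean levels of 51.7, 49.1 and 42.5 TPM in KO and of 33.8, 42.1 and 19.9 TPM in WT tumors. Pdgfra (14.3 TPM in KO, 8.41 TPM in WT), Pi16 (11.5 and 9.09 TPM) and Fap (7.48 and 6.23 TPM) were lower again. Lrrc15 (4.73 and 2.19 TPM) and S100a4 (3.15 and 5.73 TPM) were the least abundant. Below Thy1, each gene differed from the next in this order by less than the larger SD of the pair in KO tumors. The same held in WT tumors except for Pdpn and Dpt and for Fap and Lrrc15, which differed by slightly more than the larger SD. The SD measures spread between tumors, and it does not settle the order of 2 genes within the same tumor. Compared within each tumor, Islr was above Pdgfrb, and Dpt above Pdgfra, in every KO tumor but not in every WT tumor.

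All 10 are protein coding, and positions are on GRCm38 with GENCODE M21. Pdgfra (ENSMUSG00000029231, chromosome 5, 75152292 to 75198215, plus strand) and Pdgfrb (ENSMUSG00000024620, chromosome 18, 61045150 to 61085061, plus strand) encode the receptors for platelet-derived growth factors, which drive the growth and migration of mesenchymal cells. Pdgfra marks most fibroblasts, and Pdgfrb is expressed by fibroblasts, stellate cells and pericytes alike. In KO tumors, Pdgfra ranged from 23.5 to 74.9 CPM with a median of 42.5. In WT replicates A to E it was at 18.4, 23.5, 25.8, 26.0 and 60.9 CPM. WT replicates A and B lay below every KO tumor, B by a narrow margin, C and D lay above KO replicate E alone, and WT replicate E exceeded 4 of the 6 KO tumors. Means were 46.8 ± 21.1 CPM in KO (SD, n = 6) and 30.9 ± 17.0 CPM in WT (SD, n = 5), a log2 fold change of 0.60 (standard error, SE, 0.36; 95% interval -0.19 to 1.38, edgeR adjusted p = 0.324). Without WT replicate E the log2 fold change was 1.00 (edgeR, adjusted p = 0.0608), with WT replicates A, B and C left out it was 0.11, and with the ribosomal RNA share in the model it was 0.32.

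Pdgfrb was at 73.4 to 124 CPM in KO tumors, with a median of 91.8. WT replicates A to E were at 32.4, 76.4, 60.1, 65.1 and 119 CPM. WT replicates A, C and D lay below every KO tumor, and WT replicate E was above all KO tumors but replicate C. The log2 fold change was 0.39 (SE 0.27, 95% interval -0.20 to 0.97, edgeR adjusted p = 0.394). It was 0.66 without WT replicate E (edgeR, adjusted p = 0.0837), 0.20 without WT replicate A (edgeR, adjusted p = 0.635) and 0.01 with WT replicates A, B and C left out. Pericyte genes, which could contribute to Pdgfrb, summed to 192 to 221 CPM in KO and 116 to 328 CPM in WT tumors, with WT replicate E highest, and none of the 8 was at 0 in all tumors. Among the 8, 0 passed in edgeR after adjustment and 1 was lower in KO at an unadjusted p under 0.05. That gene was Ndufa4l2, at 9.10 CPM in KO against 26.5 in WT, whereas the most abundant one, Rgs5, was at 87.0 and 73.1 CPM. DESeq2 called Ndufa4l2 as well, as the only pericyte gene past an adjusted p of 0.05. Abcc9, a potassium channel subunit of pericytes, was at 13.9 and 8.54 CPM. The part of pericytes in the Pdgfrb values was not tested.

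The ligands of these receptors and the receptor-like gene Pdgfrl were also measured, 5 genes in all. After adjustment 0 of the 5 passed in edgeR, and at an unadjusted p under 0.05 there was 1 in each direction. Pdgfa, the A-chain ligand of the alpha receptor, averaged 36.4 ± 7.43 CPM in KO (SD, n = 6) and 76.3 ± 42.8 CPM in WT tumors (SD, n = 5), with a fitted log2 difference of -1.07 (SE 0.32, edgeR adjusted p = 0.101). DESeq2 called Pdgfa at an adjusted p of 0.05, the only one of the 5. Pdgfrl was at 25.6 CPM in KO against 18.0 in WT, with a log2 fold change of 0.51 (edgeR, adjusted p = 0.148). Pdgfc, the most abundant of the 5 and also a ligand of the alpha receptor, was at 119 CPM in KO against 88.5 in WT, a difference within the spread of the tumors (edgeR, adjusted p = 0.296). The median log2 fold change of the 5 was 0.40.

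Fap, Pdpn and Thy1 encode surface proteins used to recognize activated fibroblasts. Fap (ENSMUSG00000000392, chromosome 2, 62500943 to 62574075, minus strand) encodes fibroblast activation protein, a membrane serine protease that cleaves after proline. KO tumors had 7.98 to 19.5 CPM of Fap, with a median of 13.8, and WT replicates A to E had 9.94, 16.02, 12.3, 11.1 and 20.5 CPM. All WT values but that of replicate E lay inside the KO range. The log2 fold change was -0.02 (SE 0.26, 95% interval -0.59 to 0.54, edgeR adjusted p = 0.968). The related prolyl peptidases showed no call either: 0 of 4 tested passed in edgeR after adjustment, 0 of 4 at an unadjusted p under 0.05, and 0 in DESeq2 after adjustment. Among them Dpp9 was the most abundant, at 82.7 CPM in KO against 84.5 in WT, and Dpp4, a close relative of Fap that also marks adventitial fibroblasts, was at 12.5 and 8.13 CPM. Dpp6 and Dpp10 were too low to test.

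Pdpn (ENSMUSG00000028583, chromosome 4, 143267431 to 143299564, minus strand) encodes podoplanin, a mucin-type glycoprotein of activated fibroblasts, lymphatic endothelium and mesothelium. It ranged from 18.5 to 49.4 CPM in KO tumors, with a median of 24.4, and WT replicates A to E were at 47.0, 37.0, 22.4, 15.9 and 38.1 CPM. The groups overlapped over almost their whole range, with KO replicate C and WT replicate A highest. The log2 fold change was -0.13 (SE 0.32, 95% interval -0.83 to 0.56, edgeR adjusted p = 0.824). Its sign turned to 0.14 with an offset for gene length and to 0.12 with WT replicates A, B and C left out. Lymphatic endothelial genes summed to 11.7 to 59.9 CPM in KO and 13.4 to 36.4 CPM in WT tumors, and mesothelial genes to 150 to 410 and 157 to 465 CPM. No gene of either list passed in edgeR after adjustment, at an unadjusted p under 0.05, or in DESeq2 after adjustment. Flt4, the lymphatic growth factor receptor, was at 12.4 CPM in KO against 10.6 in WT, and Mmrn1 at 2.96 and 5.36 CPM. Msln, the mesothelial and carcinoma antigen mesothelin, made up most of the mesothelial sum, at 287 and 313 CPM. Wt1, a mesothelial transcription factor, was at 10.5 and 7.41 CPM.

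Thy1 (ENSMUSG00000032011, chromosome 9, 44043384 to 44048579, plus strand), also called CD90, is carried by fibroblasts and, in mice, by T cells. It was the steadiest of the 10, spanning 2.06-fold over the 11 tumors. KO tumors had 148 to 305 CPM, with a median of 208, and WT replicates A to E had 226, 291, 163, 185 and 207 CPM. The log2 fold change was 0.02 (SE 0.21, 95% interval -0.44 to 0.48, edgeR adjusted p = 0.967). T cell genes summed to 72.7 to 441 CPM in KO and 190 to 516 CPM in WT tumors, with 0 of 7 passing in edgeR after adjustment, at an unadjusted p under 0.05, or in DESeq2 after adjustment. Cd8a, the coreceptor of cytotoxic T cells and the most abundant of the 7, was at 86.6 CPM in KO against 77.2 in WT, and the T cell receptor subunit Cd3d was at 26.9 and 45.6 CPM. KO replicate D had the lowest value of both Thy1 and the T cell sum, and KO replicate F the highest Thy1. The T cell sum was highest in WT replicate A, at 516 CPM, where Thy1 was at 226 CPM. WT replicate B, with Thy1 at 291 CPM, had a T cell sum of 228 CPM. The part of T cells in the Thy1 values was not tested.

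Dpt and Pi16 are markers of the universal, adventitial type of fibroblast found in many organs. Dpt (ENSMUSG00000026574, chromosome 1, 164796644 to 164824266, plus strand) encodes dermatopontin, a small matrix protein that binds decorin, and Pi16 (ENSMUSG00000024011, chromosome 17, 29317680 to 29330593, plus strand) encodes a secreted protease inhibitor-like protein. In KO tumors, Dpt ranged from 12.4 to 61.7 CPM with a median of 15.4. WT replicates A to E were at 17.9, 11.8, 2.31, 3.96 and 29.1 CPM. KO replicate C stood far above all others, and WT replicates C and D far below. The log2 fold change was 0.89 (SE 0.62, 95% interval -0.44 to 2.23, edgeR adjusted p = 0.388), and it was 1.43 without WT replicate E (edgeR, adjusted p = 0.141) and 0.55 with WT replicates A, B and C left out. Without KO replicate C it was 0.35 (edgeR, adjusted p = 0.739).

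For Pi16, KO tumors had 7.80 to 40.5 CPM, with a median of 19.9. WT replicates A to E had 18.1, 10.7, 6.09, 7.09 and 58.5 CPM. The highest value of all 11 tumors was thus in a WT tumor, and the 2 lowest were WT replicates C and D. The log2 fold change was 0.25 (SE 0.58, 95% interval -1.0 to 1.51, edgeR adjusted p = 0.814). Its size depended on WT replicate E, without which the log2 fold change was 1.20 (edgeR, adjusted p = 0.0996), and with WT replicates A, B and C left out the sign turned, to -0.44. It was between 0.02 and 0.44 with any one of the other tumors left out, lowest without WT replicate C.

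Among 11 other tested genes of universal and adventitial fibroblasts, 0 passed in edgeR after adjustment or in DESeq2 after adjustment. At an unadjusted p under 0.05, 1 was higher in KO and 0 were lower, with a median log2 fold change of 0.30. That gene was Gsn, which encodes the actin-severing protein gelsolin, at 239 ± 19.1 CPM in KO (SD, n = 6) against 187 ± 39.0 CPM in WT tumors (SD, n = 5) (edgeR, adjusted p = 0.200). Ly6a, the surface protein Sca-1 and the most abundant of the 11, was at 776 ± 473 CPM in KO against 651 ± 747 in WT, with an SD larger than the mean in WT. Anxa3, an annexin, was at 409 and 464 CPM.

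Lrrc15 and Islr both encode leucine-rich repeat proteins. Lrrc15 (ENSMUSG00000052316, chromosome 16, 30269302 to 30283256, minus strand) encodes a leucine-rich repeat membrane protein of myofibroblastic cancer-associated fibroblasts. It had 1.02 to 19.4 CPM in KO tumors, with a median of 5.75. WT replicates A to E were at 6.68, 3.17, 7.86, 0.196 and 6.15 CPM. KO replicates D and F were above every WT tumor, whereas KO replicate A and WT replicate D were the lowest, and the value of WT replicate D lay close to the level that 3 counts give. The log2 fold change was 0.74 (SE 0.74, 95% interval -0.85 to 2.33, edgeR adjusted p = 0.554). It was 0.26 without KO replicate D, 0.43 without WT replicate D and 1.33 with WT replicates A, B and C left out, with edgeR adjusted p-values of 0.859, 0.654 and 0.583.

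Islr (ENSMUSG00000037206, chromosome 9, 58156268 to 58204306, minus strand) ranged from 42.6 to 107 CPM in KO tumors, with a median of 61.4. WT replicates A to E were at 39.5, 34.6, 51.1, 27.5 and 74.6 CPM. WT replicates A, B and D lay below every KO tumor, and KO replicates C and F, near 107 and 104 CPM, above every WT tumor. Means were 70.4 ± 28.9 CPM in KO (SD, n = 6) and 45.4 ± 18.4 CPM in WT (SD, n = 5), a log2 fold change of 0.63 (SE 0.31, 95% interval -0.04 to 1.31, edgeR adjusted p = 0.234). Without WT replicate E it was 0.89 (edgeR, adjusted p = 0.0733), and with WT replicates A, B and C left out it was 0.47. On the same strand, 181 of the 2686 exonic bases of Islr are shared with Islr2, which was at 0.167 to 8.10 CPM, so that a small part of the reads of these neighbors may not have been assigned.

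S100a4 encodes a small calcium-binding protein, also called FSP1, that was first used as a fibroblast marker and is also made by macrophages and some carcinoma cells. It was close to the limit of detection. KO replicates A to F had 21, 13, 18, 24, 8 and 12 raw counts, and WT replicates A to E had 77, 43, 14, 11 and 18. These were 0.325 to 0.976 CPM in KO, with a median of 0.555, and 3.34, 3.59, 0.688, 0.431 and 0.532 CPM in WT. WT replicates A and B alone were high, and WT replicates C, D and E lay inside the KO range. The log2 fold change was -1.48 (SE 0.59, 95% interval -2.76 to -0.20, edgeR unadjusted p = 0.0263, adjusted p = 0.158). Without WT replicates A, B and C it was 0.32, the opposite sign (edgeR, adjusted p = 0.759).

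The annotation bears on how the S100a4 count reads. S100a4 (ENSMUSG00000001020, chromosome 3, 90603771 to 90606045, plus strand) overlaps another gene model: 302 of its 584 exonic bases (51.7%) belong also to exons of Gm42674, a protein-coding gene model that joins exons of S100a3 and S100a4. Gm42674 itself had 0 counts in every tumor. A read that falls on exons of more than one gene can be left unassigned by a gene-level counter, and the overlap setting of the counting is not given in the sources used here, so that the level of S100a4 is uncertain and may be too low. Of the 306 bases of the S100a4 reading frame, 287 are shared. Its second coding exon, at chr3:90605740-90605904 on the plus strand (transcript sequence of GENCODE M21), is printed 5′ to 3′ to show where the shared stretch ends, with the 146 bases shared with Gm42674 in capitals and the remaining 19 in lower case.
S100a4: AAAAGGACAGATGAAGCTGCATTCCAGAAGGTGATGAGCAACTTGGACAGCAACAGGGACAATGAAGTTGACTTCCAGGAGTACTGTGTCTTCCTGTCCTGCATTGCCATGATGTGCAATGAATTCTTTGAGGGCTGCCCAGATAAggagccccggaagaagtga
Whether the overlap plays a part in the genotype difference was not tested.

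**Figure D2:**
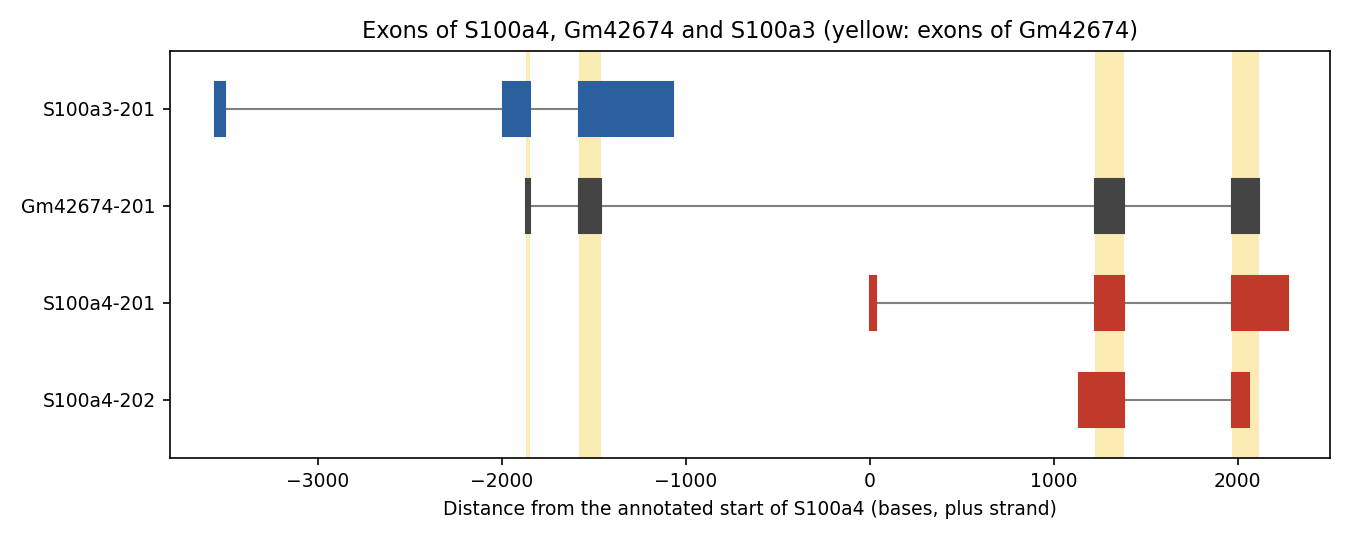
Exons (boxes) and introns (lines) of S100a3, Gm42674 and S100a4, drawn to scale as distance in bases from the annotated start of S100a4, with exons of Gm42674 shaded in yellow across all rows. The shading covers most of the S100a4 coding exons, 302 of 584 exonic bases in all.

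Other members of the S100 family were read beside it, 9 tested genes without S100a8 and S100a9. After adjustment 0 of the 9 passed in edgeR, whereas 6 were lower in KO at an unadjusted p under 0.05, 0 were higher, and the median log2 fold change was -0.85. DESeq2 called 4 of the list of 10 at an adjusted p of 0.05: S100a3, S100a5, S100a6 and S100a10. S100a5, with 0 to 18 counts per tumor, was too low for the edgeR test and is not among the 9. S100a3 was also low, at 0.407 CPM in KO against 1.19 in WT, whereas S100a10 was at 314 and 565 CPM. S100a6, the most abundant of the family and a neighbor of S100a4, averaged 1726 ± 442 CPM in KO (SD, n = 6) and 3947 ± 1778 CPM in WT (SD, n = 5), with a fitted log2 difference of -1.19 (SE 0.32, edgeR adjusted p = 0.0912). It had 26638 to 115934 counts per tumor, against 8 to 77 for S100a4. The S100 sum was 2488 to 4428 CPM in KO and 3807 to 8964 CPM in WT, with WT replicates A, B and C highest. WT replicates A, B and C are the 3 libraries in which deviations were negatively related to transcript length. Carcinoma epithelial genes were also lower in KO for 3 of 6 at an unadjusted p under 0.05, with Krt19, a ductal keratin, at 547 and 1033 CPM and Krt18 at 1404 and 2041 CPM. In edgeR and in DESeq2 0 of the 6 passed after adjustment. Macrophage genes summed to 3124 to 5380 CPM in KO and 2805 to 5547 CPM in WT tumors. Of 7, 2 were higher in KO at an unadjusted p under 0.05, and 0 passed in edgeR after adjustment. Csf1r, the receptor for macrophage growth factor, was at 317 CPM in KO against 178 in WT and was called by DESeq2, and Lyz2, a lysozyme, was at 2055 and 2230 CPM. The S100a4 difference itself was -0.72 with an offset for gene length (edgeR, adjusted p = 0.350) and -0.35 with the ribosomal RNA share in the model (edgeR, adjusted p = 0.905), against -1.48 without them. The parts of carcinoma cells and macrophages in the S100a4 values were not tested.

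**Figure D3:**
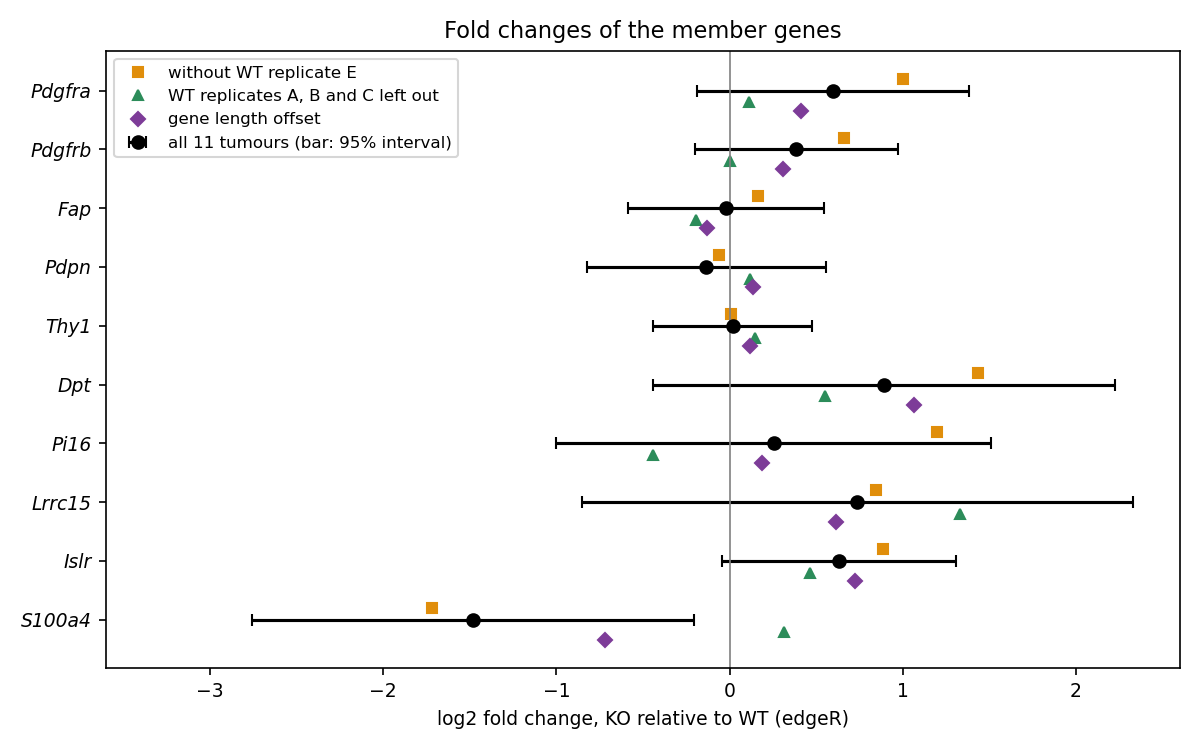
log2 fold change of the 10 genes (KO relative to WT, edgeR), as black points with 95% intervals for all 11 tumors. Colored symbols show the same value without WT replicate E, with WT replicates A, B and C left out, and with an offset for gene length; S100a4 is the gene that moves most, from -1.48 to 0.32 without WT replicates A, B and C.

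The transcription factors and stellate genes that accompany these markers gave no calls. Among 10 mesenchymal transcription factors, 0 passed in edgeR or DESeq2 after adjustment, 1 was lower in KO at an unadjusted p under 0.05 and the median log2 fold change was -0.14. That gene was Osr2, at 0.882 ± 1.23 CPM in KO against 3.11 ± 2.76 in WT (edgeR, adjusted p = 0.205). Prrx1, the mesenchymal homeobox factor and the most abundant of the 10, was at 39.7 CPM in KO against 31.1 in WT. Among 9 tested stellate genes the median was -0.26, with 1 lower at an unadjusted p under 0.05 and 0 past adjustment in edgeR or DESeq2. Vim, the intermediate filament vimentin, was at 2019 CPM in KO against 2401 in WT, and Nes, nestin, at 68.5 and 46.8 CPM. Gfap, which marks quiescent stellate cells, had 0 to 6 counts per tumor and could not be tested.

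Without WT replicate E, 6 of the 10 genes passed an unadjusted p under 0.05 in edgeR and 0 passed after adjustment. These were Pdgfra, Pdgfrb, Dpt, Pi16 and Islr, higher in KO, and S100a4, lower. Over all genes, 32.1% passed in that fit (13% higher and 19.1% lower), and 11.1% passed after adjustment. The lowest adjusted p of any of the 10 in any of the 19 alternative fits was 0.0608, for Pdgfra in this one. With WT replicates A, B and C left out, which leaves WT replicates D and E, 0 of the 10 passed at an unadjusted p under 0.05, against 17.2% of all genes. The count was 0 of the 10 with the ribosomal RNA share in the model (8.89% of all genes), and 2 of the 10 without a filter on low counts (16.5% of all genes).

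Ratios between members compared fibroblast features within a library, as log2 of CPM + 1. The comparison of Pdgfra with Pdgfrb sets the fibroblast receptor against that shared with pericytes. Its log2 ratio was -1.06 ± 0.43 (SD, n = 6) in KO and -1.18 ± 0.34 (SD, n = 5) in WT, a difference of 0.12 (exact two-sided permutation test, p = 0.641, adjusted over 3 ratios 0.641). The comparison of Lrrc15 with Dpt sets the myofibroblastic against the universal marker, and its log2 ratio was -1.55 ± 1.24 in KO and -1.12 ± 1.46 in WT, a difference of -0.43 (exact two-sided permutation test, p = 0.613, adjusted 0.641). The smallest p that all splits of the tumors into 6 and 5 allow is 0.00216.

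The ratio of Fap to Pdgfra compares the activation-linked protease with the general fibroblast receptor. In KO replicates A to F the log2 ratio was -1.71, -1.92, -1.78, -1.40, -0.86 and -2.09. In WT replicates A to E it was -0.83, -0.52, -1.01, -1.16 and -1.53. Of the 6 KO tumors, 4 lay below the lowest WT tumor, replicate E, and KO replicates D and E lay among the WT values. Means were -1.63 ± 0.44 (SD, n = 6) in KO and -1.01 ± 0.37 (SD, n = 5) in WT, a difference of -0.62 (exact two-sided permutation test, p = 0.0390, adjusted over 3 ratios 0.117). With one tumor left out at a time, the unadjusted p was under 0.05 in 3 of 11 cases and 0.0571 to 0.0952 in the other 8 (exact permutation test). The adjusted p was 0.0476 without KO replicate E, where the difference was -0.77, and 0.0857 to 0.286 without any one of the other tumors (exact permutation test). With WT replicates A, B and C left out the difference was -0.28, with no test. Exons of Pdgfra span 10.02 kb and those of Fap 5.66 kb, and after the length trend of each library was removed the difference was -0.47 (exact permutation test, unadjusted p = 0.0801).

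**Figure D4:**
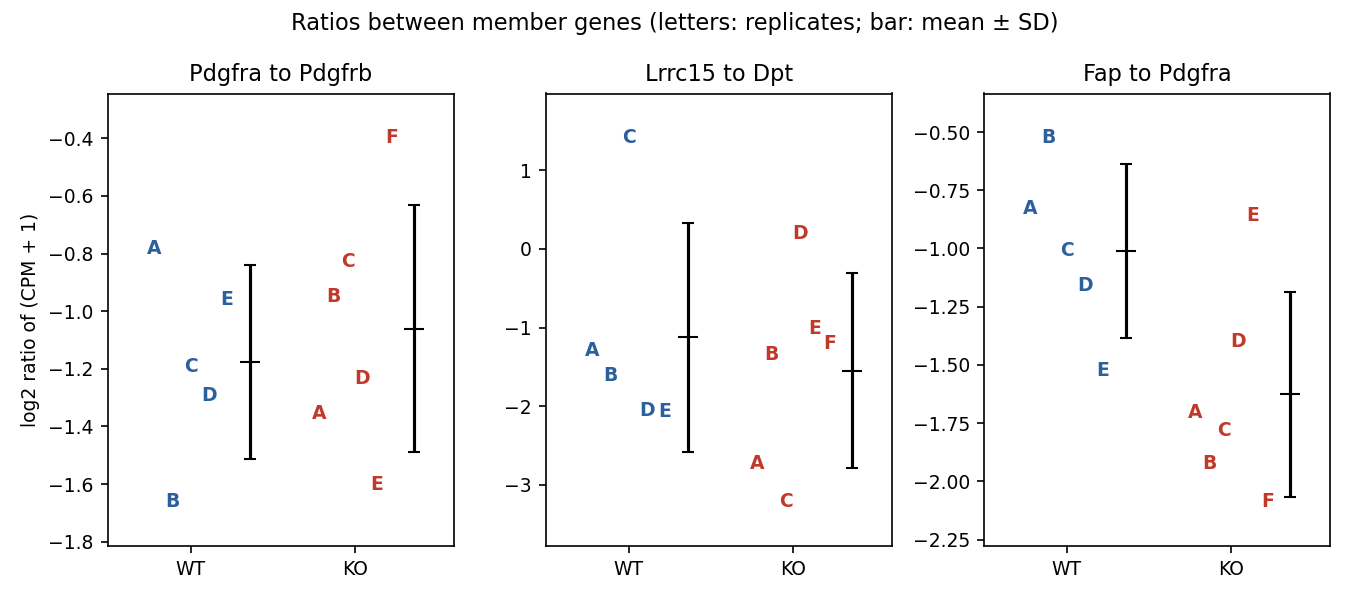
log2 ratio between pairs of genes (from CPM + 1, linear axis) in every tumor. Letters are replicates, and bars show the mean and SD of 5 WT and 6 KO tumors; the Fap to Pdgfra ratio is below the lowest WT value in 4 of 6 KO tumors.

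Several of the 10 genes were highest in the same tumors, which came from both genotypes. The summed level of 5 fibroblast matrix genes (Col1a1, Col1a2, Col3a1, Dcn and Lum) was highest in KO replicate C (9162 CPM), WT replicate E (9123 CPM) and KO replicate F (8985 CPM), and lowest in WT replicate A (2306 CPM). KO replicate D followed at 7144 CPM, and the others ranged from 2923 to 4672 CPM. Those 3 tumors also had the 3 highest values of Pdgfra, Fap, Dpt, Pi16 and Islr, and 2 of the 3 highest for Pdgfrb, Pdpn and Thy1. They held 1 of the 3 highest for Lrrc15 and 0 for S100a4. The share of all genes that were highest in these tumors was not counted, so that the pattern is not read as particular to the 10. The matrix genes were also without a call in edgeR or DESeq2 after adjustment (0 of 5), or at an unadjusted p under 0.05 in edgeR, with a median log2 fold change of 0.41. Col3a1, the most abundant of them, was at 2613 ± 1058 CPM in KO (SD, n = 6) against 1520 ± 929 CPM in WT (SD, n = 5), with an edgeR adjusted p of 0.228. Set against this sum, chosen after seeing the data and given without a test, 9 of the 10 differences between genotypes lay below 0, with Dpt the exception at 0.41 on the log2 scale. Of the 10, 9 were smaller than the SD of the WT tumors, and Fap, at -0.64 against an SD of 0.40, was larger. The sum itself was higher in KO, with a median of 5908 CPM against 4090 CPM in WT, which lowers every difference set against it. The count of differences below 0 is therefore not read as a result about these genes.

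**Figure D5:**
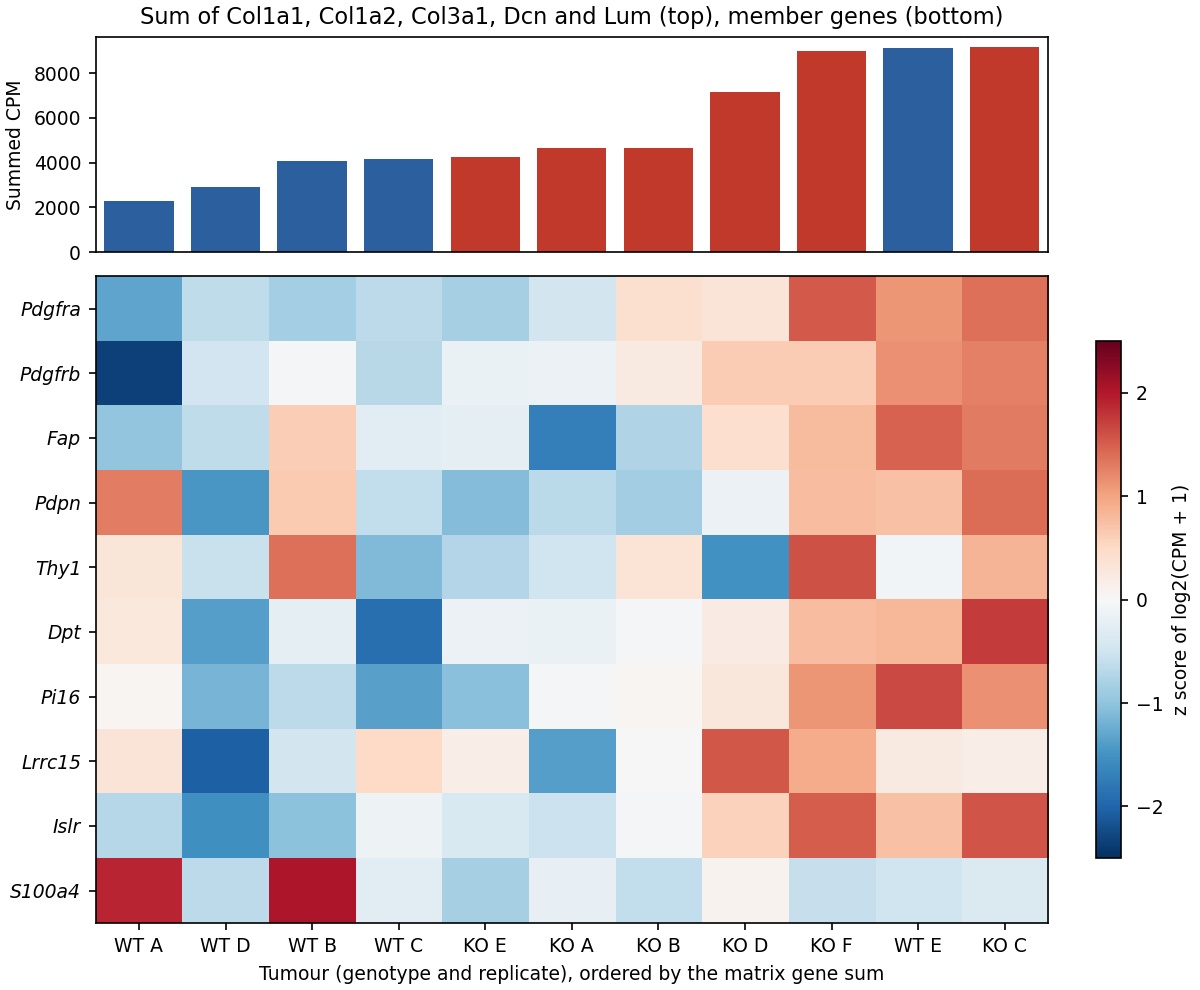
Tumors ordered by the summed CPM of 5 fibroblast matrix genes (upper bars, WT blue and KO red), with the z score of log2(CPM + 1) of each of the 10 genes below. The right-hand tumors, KO replicate F, WT replicate E and KO replicate C, are high for most genes, whereas S100a4 is high in WT replicates A and B alone.

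After each genotype's mean was subtracted, the median Pearson correlation of the 36 pairs without S100a4 was 0.58 over the 11 tumors, and that of the 9 pairs with S100a4 was 0.03. The 45 pairs were examined after seeing the data. Of the 36 pairs, 10 had an adjusted p under 0.05 for Pearson's r (permutation test, 100000 resamples, Benjamini-Hochberg over 45), and of the 9 pairs with S100a4, 0 did. Not all of the 10 also passed by Spearman correlation. Pdpn and Dpt were the closest pair, with r = 0.88 (adjusted permutation p = 0.0130) and a Spearman correlation of 0.87 (adjusted permutation p = 0.0306). Without the 2 tumors farthest from the median of Pdpn, r was 0.83. Dpt and Pi16, the pair of universal fibroblast markers, had r = 0.87 (adjusted permutation p = 0.0130) and a Spearman correlation of 0.86 (adjusted permutation p = 0.0306), and r was 0.78 without the 2 farthest tumors. Pdgfra and Islr had r = 0.86 (adjusted permutation p = 0.0130) and a Spearman correlation of 0.70 (adjusted permutation p = 0.0928), with r = 0.73 without the 2 farthest. Pdgfrb and Fap had r = 0.81 (adjusted permutation p = 0.0182) and a Spearman correlation of 0.84 (adjusted permutation p = 0.0318), with r = 0.85 without the 2 farthest. Pdpn and Pi16 had r = 0.75 and also passed by Spearman correlation (adjusted permutation p = 0.0461). Pdgfra and Pi16 had r = 0.81 but did not pass by Spearman correlation (adjusted permutation p = 0.0928), with r = 0.57 without the 2 farthest. These tumors share no animal, but they differ in depth, ribosomal RNA share, length trend and the summed matrix genes, whose parts were not tested. The share among all gene pairs was not computed, so that the counts of pairs are not read as particular to these genes.

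The genes with the most similar pattern to each of the 10 were taken by Pearson's r of genotype-centered log2(CPM + 1) over the 11 tumors, among 11967 genes with a mean of at least 5 CPM, as a description. Pdgfrb was followed most closely by Kif26b (r = 0.98) and Ttc14 (r = 0.96), and Pdgfra by Lrrc32 and Igf1 (r = 0.91 for both). Fap was followed by Spon1 (r = 0.96) and Lhfp (r = 0.93), Islr by Cpxm1 (r = 0.97) and Rap2b (r = 0.95), and Pi16 by Pde3b and B430306N03Rik (r = 0.95 for both). Pdpn was followed by Hspb8 (r = 0.97) and Zfp692 (r = 0.95), and Thy1 by Egr2 and Cnpy3 (r = 0.95 for both). Dpt was followed by Lilr4b (r = 0.94) and Trem1 (r = 0.93), both receptors of myeloid cells, Lrrc15 by Gpc1 and Rfxap (r = 0.91 for both), and S100a4 by Nudt9 (r = 0.97) and Gm12751 (r = 0.96). With so many genes compared over 11 tumors, nothing is read from them about function.

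Remaining cell types were measured as markers of what else the pieces held. Blood endothelial genes summed to 164 to 234 CPM in KO and 114 to 238 CPM in WT tumors, with no call in edgeR or DESeq2 after adjustment (0 of 5) and 0 of 5 at an unadjusted p under 0.05. Pecam1 was at 73.4 CPM in KO against 56.3 in WT, and Emcn, endomucin, at 19.6 and 24.2 CPM. Adipocyte genes summed to 46.4 to 112 CPM in KO and 39.2 to 196 CPM in WT, and 2 of 4 tested were higher in KO at an unadjusted p under 0.05. Plin1, the lipid droplet protein perilipin, was at 3.14 CPM in KO against 0.295 in WT and was called by DESeq2 but not by edgeR (adjusted p = 0.0946), while Fabp4 was at 55.5 and 75.7 CPM and Cidec at 8.33 and 13.4 CPM. Of the acinar genes, 2 could be tested: Cela1 was at 11.8 CPM in KO against 46.2 in WT (edgeR, adjusted p = 0.0938; called by DESeq2) and Prss2 at 19.1 and 86.7 CPM. The Schwann cell genes were near the limit of detection, with S100b at 4.36 and 8.32 CPM and 0 of 2 tested at an unadjusted p under 0.05. The 5 fibroblast matrix genes summed to at least 2306 CPM in every tumor, and Pdgfrb and Thy1 were at 32.4 and 148 CPM or more. Pdgfrb and Thy1 are shared with pericytes and T cells, and other members were far lower. Lrrc15, S100a4 and Dpt were at 0.196, 0.325 and 2.31 CPM in the lowest tumor of each. These levels are therefore no check of the fibroblast label.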

How the data were processed

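RNA was sequenced from pieces of 11 tumors. Per the labels and the study's methods, libraries were made with a directional kit, with trimming by Trimmomatic, alignment to mm10 (GRCm38) by HISAT2 2.1.0 and counting by HTSeq 0.11.2, the versions being those in the submitters' processing notes. The authors deposited whole-number counts per gene and a table of size-factor-scaled counts, a signal used here only as an alternative for the ratios. Of 54232 identifiers, 54165 matched GENCODE M21.

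Counts were fitted with edgeR 4.0.16 (R 4.3.3; TMM, filterByExpr, quasi-likelihood F-test, Benjamini-Hochberg), with DESeq2 1.42.0 as an alternative. Standard errors are the size of the log2 fold change over the square root of F. The edgeR code was tested on simulated data. TPM used summed exon lengths. Ratios used log2(CPM + 1) with exact permutation tests. P-values of the genotype comparisons set the group difference against the spread between these tumors. Those of the pair correlations concern association across them. Groups came from the sample titles, and letters shared by the groups are different animals. Labels name no batch. The 3-count floor covers counting error only.

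Named genes are the 10 members, from each list the gene with the smallest p in each direction and that with the highest mean, and the 2 genes most like each member. Efhd1 and other untested genes are left out, and 1 gene of the lists is not reported here. The members, lists and ratios were chosen with earlier results of these data known.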

Additional observations from a re-analysis of the deposited data

Results flagged for a closer look

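Within the 5 WT tumors, Pdgfra in WT replicate E stood apart, with a log2(CPM + 1) of 5.95 where the other 4 ranged from 4.28 to 4.76. The log2 ratio of Lrrc15 to Dpt in WT replicate C stood apart as well, at 1.42 against -2.07 to -1.30 in the others. In both cases the gap to the nearest tumor exceeded Dixon's 95% critical value. Of 26 groups of values examined, 2 exceeded it, and chance gives about 1.3.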

How the results depend on the processing

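Of 188 fitted differences of the 10 genes under 19 alternatives, 171 kept their direction and stayed short of an adjusted p of 0.05 and 17 turned sign; 5 genes never turned, and none passed. At an unadjusted p under 0.05 in edgeR, 1 gene passed in all tumors (24% of all genes). Without a filter on low counts 2 passed (16.5%), with the ribosomal RNA share in the model 0 (8.89%), and with WT replicates A, B and C left out 0 (17.2%). With at least 10 counts in every tumor, where S100a4 and Lrrc15 were not tested, 0 passed. Leaving out one tumor gave 0 to 6, with 6 without WT replicate E (32.1% of all genes). In the replicate block fit 0 passed. Same-letter tumors had correlations of their deviations of -0.13 to 0.11, and the letters belong to different animals. The share of all genes was not counted for the 10-count filter, the replicate block or the other fits with one tumor left out. Counts in those fits are therefore not read as a result about these genes.

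Signs turned as follows, and the cause was not tested. Fap was at 0.033 without a filter and -0.15 to 0.16 with one tumor left out. Pdpn was at 0.14 with the length offset, 0.12 with WT replicates A, B and C left out and -0.36 to 0.047 with one tumor left out. Thy1 was at -0.11 with the replicate block and -0.10 to 0.15 with one tumor left out. Pi16 was at -0.048 with the ribosomal covariate and -0.44 with WT replicates A, B and C left out, and S100a4 was at 0.32 with them left out. The Pdgfra to Pdgfrb ratio was -0.046 with the length trend removed, -0.017 with the replicate block and -0.017 to 0.22 with one tumor left out. The Lrrc15 to Dpt ratio was 0.51 with WT replicates A, B and C left out and ranged from -0.78 to 0.21 with one tumor left out. The Fap to Pdgfra ratio ranged from -0.77 to -0.50 with one tumor left out and was -0.52 with the replicate block (exact permutation p = 0.188), in which Lrrc15 was at 0.24. Depth limits S100a4 (8 to 77 counts).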
